A study of Mus musculus with 17 samples.

Results

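The comparison described here is between the whole blood of mice that had received 0.5 Gy of X-rays over the whole body 24 h earlier and the whole blood of unirradiated mice. Its members were chosen by the dose label: 4 arrays of irradiated blood and 5 arrays of control blood (0 Gy), 9 of the 17 arrays in the series. The remaining 8 arrays, 4 at 1.0 Gy and 4 at 3.0 Gy, entered the statistical model and are used below to set the 0.5 Gy blood beside higher doses. All mice were females of the strain C57BL/6JJcl, 8 weeks old, with no transgene or other treatment named in the labels. Each array was hybridised with RNA from the blood of 1 mouse, and the labels call the arrays of a group biological replicates, so the p-values measure the spread between these mice at 1 time point.

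Blood carries several kinds of RNA-bearing cells. Mature red cells have lost their nucleus, but young ones, the reticulocytes, still hold RNA for haem synthesis, for clearing their organelles and for making protein. Platelets are fragments shed by megakaryocytes and carry a store of megakaryocyte RNA, with no nucleus of their own to renew it. Lymphocytes, and B cells above all, are among the cells that die most readily after radiation, whereas mature neutrophils are resistant. Radiation breaks DNA, and cells that retain a nucleus answer through the transcription factor p53, which switches on genes of cell cycle arrest, DNA repair and cell death.

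The arrays measured 45101 probe sets, of which 34945 name 1 gene, for 18193 genes. Values are log2 expression levels, and a log2 difference of 1 is a doubling. A gene was represented by its probe set with the highest mean level and was tested if that probe set lay above the array's median in at least 4 of the 17 arrays, which 12696 genes did. The test was limma's moderated linear model over all 17 arrays, and a gene was called when its p-value, adjusted by the Benjamini-Hochberg method over all 12696 genes, was under 0.05. Differences are 0.5 Gy minus control, given ± the standard error (SE) of the fit, and group levels are given ± SD. Since whole blood was measured, fewer cells of a type and less RNA per cell cannot be told apart in any result below.

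At 0.5 Gy 1300 genes were called, 10.2% of those tested. Of these, 665 were higher (5.24%) and 635 were lower (5.0%), with a median difference of 0.84 among the higher and -0.60 among the lower, against -0.02 over all genes tested. The rises were larger than the falls: 236 of the higher genes rose at least 2-fold and 8 at least 4-fold, whereas 29 of the lower genes fell at least 2-fold and 0 fell 4-fold. Before adjustment 2776 genes had a p under 0.05. The rises also separated the animals better. In 846 of the genes tested (6.66%) all 4 irradiated arrays lay above all 5 controls, and in 576 (4.54%) all 4 lay below. Among the called genes, 628 of the 665 higher ones had no overlap between the groups, but 306 of the 635 lower ones did overlap. The size of the call also depended on single animals: it was 810 genes without the 0.5 Gy replicate 1 and 765 without the 0.5 Gy replicate 3, and 463 of the higher and 229 of the lower genes were called whichever of the 17 arrays was left out.

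Ribosomal RNA differed between the groups. The mean log2 level of 3 control probe sets for 18S ribosomal RNA was 10.44, 9.82, 10.54, 10.62 and 11.18 in control replicates 1 to 5, and 11.76, 13.43, 12.39 and 13.20 in 0.5 Gy replicates 1 to 4. All irradiated arrays were above all controls, by 2.17 on average (exact permutation test over 126 regroupings, two-sided p = 0.00794, the smallest they can give; 0.0635 after Benjamini-Hochberg adjustment over 8 array measures). With the 18S level as a covariate in the model, 557 genes were called, 232 higher and 325 lower; the part of 18S in the results was not tested. Further array measures moved with the groups. The Actb 3′ minus 5′ probe set difference, a sign of RNA integrity and labelling, was 0.037, 0.0077, 0.014 and 0.051 at 0.5 Gy and 0.22, 0.13, 0.076, 0.096 and 0.14 in the controls, lower in all irradiated arrays (exact permutation p = 0.0159, adjusted 0.0635). The hybridisation spikes averaged 10.90 ± 0.18 at 0.5 Gy and 11.19 ± 0.14 in the controls (exact permutation p = 0.0397, adjusted 0.106). Their part in the results was not tested either, and the labels name no extraction or labelling batch by which to check it. The normalization used by the submitters makes the distributions of the arrays alike, so a fall is a fall relative to the other transcripts of the same array. One array stood apart in its leukocytes: the mean level of 27 mature neutrophil genes was 7.94 in the 0.5 Gy replicate 2, against 6.99, 7.06 and 7.03 in the other irradiated arrays and 6.84 to 7.27 in the controls.

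The largest rises were in genes of platelets and their precursors. Pde5a encodes the phosphodiesterase that breaks down cyclic GMP, a brake on platelet activation. Its log2 level was 3.52, 4.33, 3.35, 3.71 and 3.48 in control replicates 1 to 5 and 6.09, 6.38, 6.24 and 6.31 in 0.5 Gy replicates 1 to 4. Every irradiated animal was far above every control, and the irradiated animals differed little from each other (6.25 ± 0.12 against 3.68 ± 0.39); the rise was 5.97-fold (2.58 ± 0.21, adjusted p = 9.19e-07). The other 2 probe sets of Pde5a differed by 1.06 and 0.58. Thbs1, the granule protein thrombospondin 1, read 7.53, 7.91, 6.98, 7.38 and 7.88 in the controls and 9.83, 9.82, 10.19 and 9.81 after irradiation (2.37 ± 0.19, adjusted p = 9.19e-07). Its groups were again far apart, and its other probe set differed by 2.14.

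**Figure D1:**
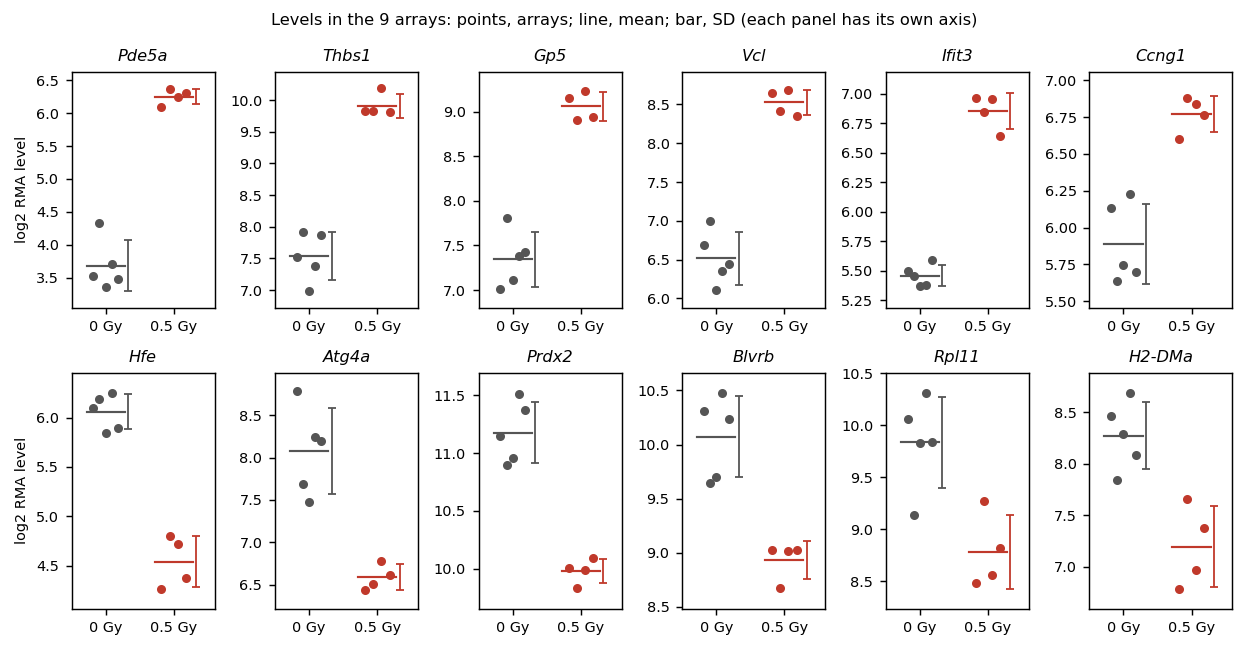
Log2 expression level of 12 genes in the 5 control and 4 irradiated (0.5 Gy) arrays. Each point is 1 mouse, the line is the group mean and the bar its SD; in Pde5a, Thbs1, Gp5, Vcl, Ifit3 and Ccng1 all irradiated points lie above all controls, in Hfe, Atg4a, Prdx2, Blvrb and H2-DMa all lie below, and in Rpl11 the 0.5 Gy replicate 2 lies among the controls.

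Megakaryocyte genes are known to be driven by GATA and ETS transcription factors, and interferon-induced genes through interferon response elements. The promoters of 3 genes that rose and 1 that fell are therefore shown, as RefSeq gives them for the assembly GRCm38.p6, each from 250 bases before to 50 bases after the annotated start, read 5′ to 3′ along the gene. Capitals mark matches to AGATAA (motif of the GATA factors), AGGAAG (motif of the ETS factors) or GAAANNGAAA (interferon response element) on either strand. No match overlapped another.
Gp5, chr16:30310732-30311031, minus strand: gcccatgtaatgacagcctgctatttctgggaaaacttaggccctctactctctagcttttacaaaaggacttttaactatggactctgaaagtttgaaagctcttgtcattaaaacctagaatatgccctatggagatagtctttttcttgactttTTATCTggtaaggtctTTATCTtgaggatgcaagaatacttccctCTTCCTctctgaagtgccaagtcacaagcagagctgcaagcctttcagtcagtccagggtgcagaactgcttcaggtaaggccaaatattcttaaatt
Itga2b, chr11:102469834-102470133, minus strand: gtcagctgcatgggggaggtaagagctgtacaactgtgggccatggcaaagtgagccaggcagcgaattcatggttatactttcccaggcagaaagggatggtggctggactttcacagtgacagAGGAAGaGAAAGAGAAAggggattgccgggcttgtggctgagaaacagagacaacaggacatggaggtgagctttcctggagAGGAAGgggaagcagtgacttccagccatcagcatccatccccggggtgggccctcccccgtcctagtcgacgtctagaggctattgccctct
Ifit3, chr19:34583279-34583578, plus strand: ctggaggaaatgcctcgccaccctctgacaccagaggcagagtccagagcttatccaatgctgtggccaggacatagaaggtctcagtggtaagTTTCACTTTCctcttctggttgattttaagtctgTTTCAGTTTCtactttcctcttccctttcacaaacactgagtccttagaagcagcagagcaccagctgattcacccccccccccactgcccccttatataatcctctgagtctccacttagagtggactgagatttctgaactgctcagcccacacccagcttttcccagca
Hfe, chr13:23710805-23711104, minus strand: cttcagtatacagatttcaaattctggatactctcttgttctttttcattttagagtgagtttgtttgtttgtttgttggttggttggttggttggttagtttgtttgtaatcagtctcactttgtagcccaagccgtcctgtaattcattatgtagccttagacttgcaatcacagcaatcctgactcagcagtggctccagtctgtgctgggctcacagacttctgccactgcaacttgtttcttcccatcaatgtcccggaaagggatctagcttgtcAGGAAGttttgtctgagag
Gp5 held 2 GATA matches, both on the other strand, 93 and 77 bases before its start, and 1 ETS match 48 bases before it. Itga2b held 2 ETS matches, 125 and 43 bases before the start, and 1 interferon response element match 118 bases before it. Ifit3 held 2 interferon response element matches, 156 and 122 bases before its start, and Hfe held 1 ETS match after its start. The Pde5a promoter held no match to these letters.

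A match is a description of letters and not a site shown to be bound. Of the 109 tested genes in the 4 platelet lists below, 76 were called higher and 64 of them had a promoter there. Their 83 promoters held a GATA match in 13.3%, an ETS match in 42.2% and an interferon response element match in 3.61%. Over the 13031 promoters of 10210 tested genes these shares were 6.94%, 33.8% and 3.00%, and over the whole collection of 32851 promoters they were 11.2%, 35.4% and 3.44%. The 534 called higher genes with a promoter stood at 7.6%, 33.6% and 3.39%, and the 532 called lower genes at 8.7%, 34.3% and 4.81%. The promoters of the 6 matched interferon-induced genes that rose held an interferon response element match in 28.6%, with Ifit3 among them. Base composition differed between these sets, with a median GC content of 58.7% in the platelet promoters, 60.0% over tested genes and 52.7% over the whole collection.

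The receptors by which platelets stick to a wound and to each other rose almost as a body. Of 24 receptors tested, 20 rose, 0 fell and all of those 20 lay above all controls, where 5.24% and 6.66% of all tested genes did so; the list's median difference was 0.99. Gp5 encodes a subunit of the von Willebrand factor receptor. It read 7.01, 7.80, 7.11, 7.38 and 7.43 in the controls and 9.16, 8.91, 9.24 and 8.94 at 0.5 Gy, with a clear gap between the groups (1.71 ± 0.18, adjusted p = 5.3e-06). Itgb3 and Itga2b encode the chains of the fibrinogen receptor. Itgb3 read 7.78, 8.62, 7.33, 7.67 and 7.71 against 9.67, 9.33, 9.71 and 9.45 (1.72 ± 0.22, adjusted p = 3.65e-05), and Itga2b read 9.19, 9.90, 8.95, 9.06 and 9.19 against 10.85, 10.42, 10.78 and 10.52 (1.39 ± 0.19, adjusted p = 5.94e-05). In both genes control replicate 2 was the highest control and still lay below every irradiated animal. The 20 rises spanned 0.53 to 1.72. Gp9, another subunit of the von Willebrand factor receptor, rose by 0.83 ± 0.22 (adjusted p = 0.0191), a call that ended without any of 4 arrays (adjusted p up to 0.0621 without the 0.5 Gy replicate 3).

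Proteins stored in or released from platelet granules followed. Of 29 tested, 16 rose and 0 fell, with a median of 0.65. Besides Thbs1, the serotonin transporter Slc6a4, by which platelets take up serotonin, read 6.38, 6.99, 6.57, 6.75 and 6.88 in the controls and 8.93, 8.70, 9.03 and 8.71 at 0.5 Gy (2.13 ± 0.18, adjusted p = 9.38e-07). Vwf, the adhesive von Willebrand factor, read 6.71, 7.41, 5.81, 5.83 and 6.22 against 8.78, 8.29, 8.75 and 8.31 (2.14 ± 0.29, adjusted p = 7.26e-05), and F5, coagulation factor V, read 6.70, 7.34, 6.36, 6.43 and 6.74 against 8.60, 8.56, 8.91 and 8.48 (1.92 ± 0.19, adjusted p = 4.13e-06). The controls spread more than the irradiated animals in both genes, and the groups did not overlap. Ltbp1, which binds latent TGF-beta, rose by 1.86 ± 0.18. The platelet chemokines Pf4 and Ppbp showed smaller differences. Pf4 read 11.84, 12.17, 12.29, 12.47 and 12.64 in the controls and 12.79, 12.79, 12.86 and 12.88 at 0.5 Gy, a narrow gap (0.55 ± 0.15, adjusted p = 0.0275) whose call ended without any of 4 arrays (adjusted p up to 0.0769 without the 0.5 Gy replicate 3), and Ppbp rose by 0.65 ± 0.14 (adjusted p = 0.00621).

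The platelet cytoskeleton list, with actin, tubulin and adhesion proteins that shape and contract the platelet, had 22 of 28 members higher and 0 lower, with a median of 1.07. Vcl, vinculin, which links integrins to actin, read 6.68, 6.99, 6.11, 6.35 and 6.44 in the controls and 8.65, 8.41, 8.68 and 8.36 at 0.5 Gy (2.01 ± 0.18, adjusted p = 1.78e-06). Parvb, a partner of integrin-linked kinase, read 7.53, 8.21, 7.37, 7.51 and 7.81 against 9.45, 9.24, 9.46 and 9.35 (1.69 ± 0.16, adjusted p = 2.17e-06). Both were higher in every irradiated animal than in any control. Mylk, myosin light chain kinase, rose by 1.53 ± 0.16. Of 28 platelet signalling genes, 18 rose and 0 fell, with a median of 0.73. Gnaq, the G protein subunit behind the thrombin and thromboxane receptors, read 5.12, 5.19, 4.94, 5.25 and 4.74 in the controls and 6.81, 6.71, 6.68 and 6.65 at 0.5 Gy (1.67 ± 0.14, adjusted p = 9.38e-07), and Mrvi1, a substrate of the cyclic GMP-dependent kinase, rose by 1.70 ± 0.17.

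The platelet lists together held 109 tested genes, of which 76 rose, 0 fell and 79 lay above all controls (72.5%), with a median of 0.93. Averaged over its receptors, each irradiated animal stood at 8.25, 8.10, 8.33 and 8.26, and each control at 7.04, 7.42, 7.29, 7.39 and 7.54, so the lists separated the groups animal by animal. The cytoskeleton list stood at 9.15, 9.09, 9.20 and 9.10 against 8.07, 8.31, 7.93, 8.17 and 8.14. Whichever array was left out, 17 to 20 receptors, 14 to 17 granule genes, 20 to 24 cytoskeleton genes and 15 to 18 signalling genes rose. With the 18S level as a covariate 6, 12, 16 and 7 rose, and Pde5a, Thbs1, Gp5, Itgb3, Itga2b, Vcl, Parvb, Gnaq and Mrvi1 were each still called. The platelet markers Pf4 (0.30, adjusted p = 0.739), Ppbp (0.38, adjusted p = 0.61) and Gp9 (0.72, adjusted p = 0.515) then lost their calls.

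**Figure D2:**
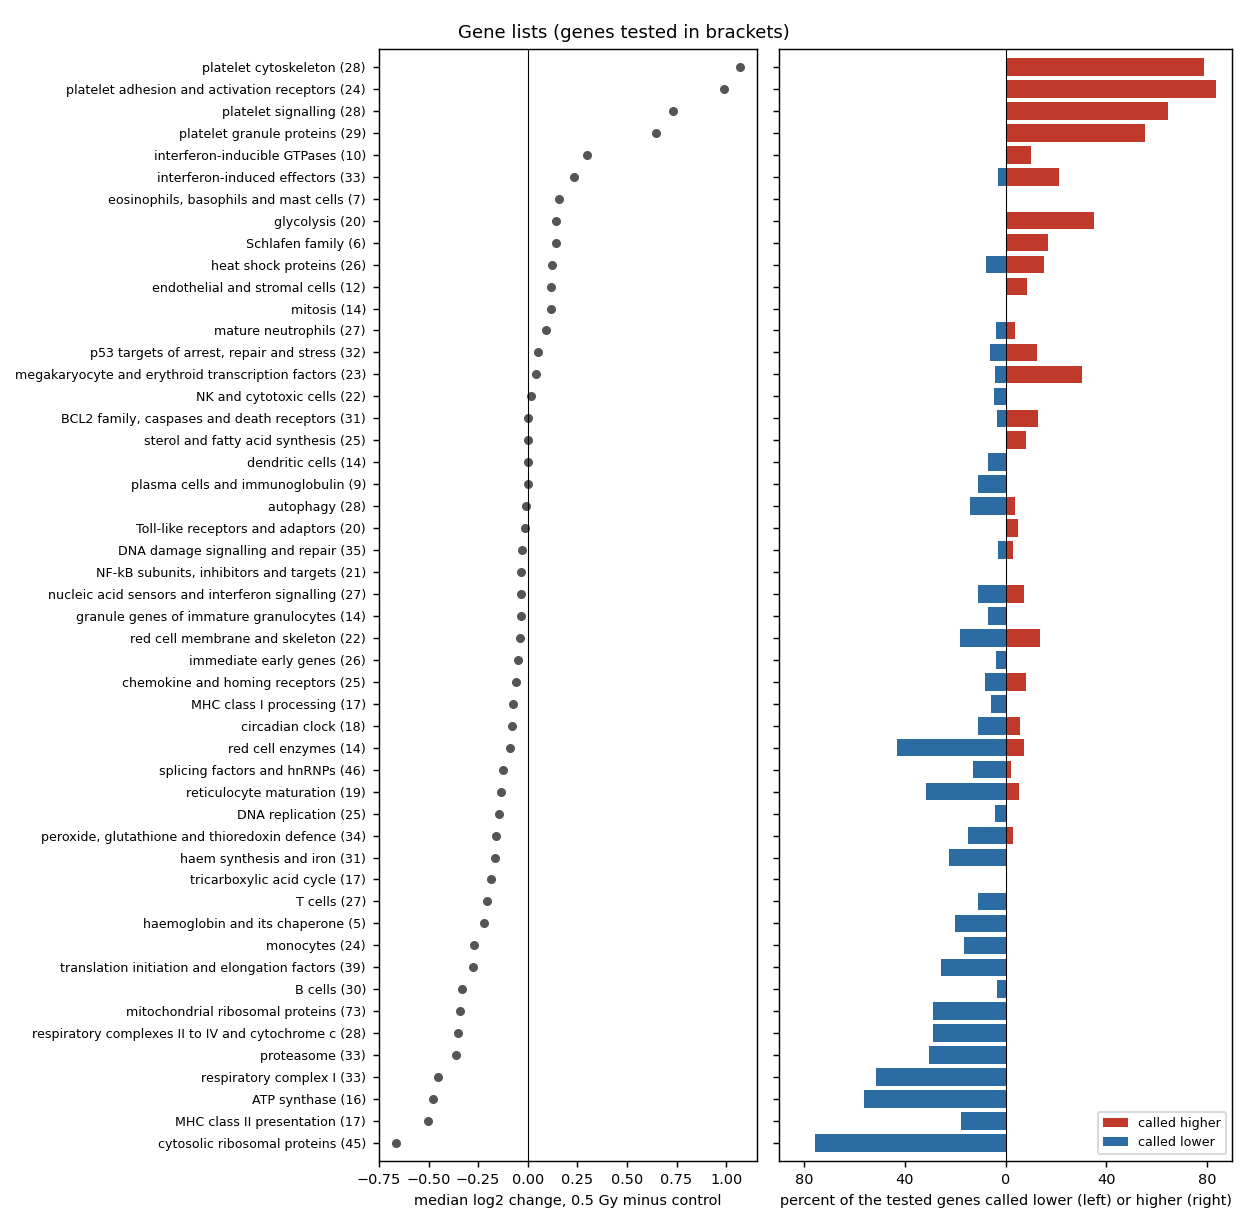
The 50 gene lists, each with the median log2 difference (0.5 Gy minus control) of its tested members and the percent of them called higher or lower. The platelet lists stand at the high end, with medians of 0.65 to 1.07, and the cytosolic ribosomal proteins at the low end, with -0.67.

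**Figure D3:**
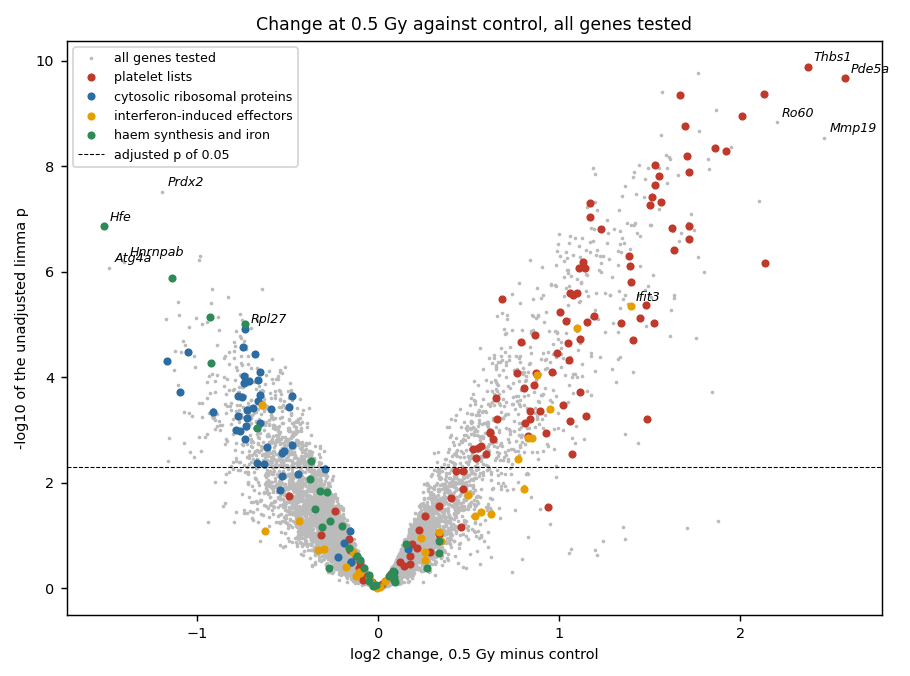
Log2 difference (0.5 Gy minus control, horizontal) and -log10 of the unadjusted p (vertical) of all 12696 tested genes, 1 point each. Coloured points are the members of the platelet, cytosolic ribosomal protein, interferon-induced and haem lists, and the dashed line is the level at which the adjusted p reaches 0.05; platelet genes lie to the right and ribosomal protein genes to the left.

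Several of the largest rises lay outside those lists. Mmp19, a secreted metalloproteinase, read 4.35, 4.82, 4.72, 4.43 and 4.17 in the controls and 7.10, 6.64, 7.13 and 6.96 at 0.5 Gy (2.46 ± 0.24, adjusted p = 2.8e-06), and its other probe set differed by 1.47. Ro60, an RNA-binding protein, read 4.21, 5.20, 4.45, 4.07 and 4.25 against 6.69, 6.43, 6.69 and 6.74 (2.20 ± 0.20, adjusted p = 2.09e-06). Neither gene overlapped between the groups. Cracd (2.10 ± 0.24), Frmd4b (1.95 ± 0.19), Nckap1, a subunit of the WAVE complex that starts actin branching (1.87 ± 0.17), the kinase Tnik (1.83 ± 0.19) and Pgm2l1 (1.82 ± 0.18) completed the 15 largest rises without overlap between the groups, together with Mgp, described further on.

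Transcription factors that build megakaryocytes and red cells were called more often in the higher direction, although the list's median was 0.04. Among 23, 7 rose (30.4%) and 1 fell (4.35%), where 5.24% and 5.0% of all tested genes did. Tal1, which both lineages need, read 6.54, 6.996, 6.95, 6.96 and 7.06 in the controls and 8.10, 7.91, 8.24 and 8.12 at 0.5 Gy (1.19 ± 0.15, adjusted p = 2.86e-05). Gata2 (0.81 ± 0.17, adjusted p = 0.00356) and Nfe2, which drives platelet release (0.74 ± 0.16, adjusted p = 0.00592), also rose without overlap. Lmo2, a bridging partner of Tal1, went the other way: its controls read 9.16, 8.67, 8.60, 9.06 and 8.91 and its irradiated animals 8.35, 8.22, 8.43 and 8.37 (-0.54 ± 0.12, adjusted p = 0.00804), all below all controls. The rises numbered 4 without the 0.5 Gy replicate 1 or 3, 3 without replicate 4, and 1 with the 18S level as a covariate.

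Genes of haem synthesis and iron handling were called in the lower direction alone. Of 31 tested, 0 rose and 7 fell (22.6%, where 5.0% of all tested genes fell), with a median of -0.16. Hfe, a regulator of iron uptake, had the largest fall among the called genes without overlap between the groups. It read 6.10, 6.19, 5.85, 6.25 and 5.90 in the controls and 4.26, 4.80, 4.72 and 4.38 at 0.5 Gy, more than 1 log2 unit below every control (-1.51 ± 0.19, adjusted p = 2.7e-05). Its other probe set differed by only -0.15. Blvrb, which reduces biliverdin, the breakdown product of haem, read 10.31, 9.64, 9.70, 10.47 and 10.24 against 9.02, 8.67, 9.02 and 9.02 (-1.14 ± 0.16, adjusted p = 0.000118). Hscb, a chaperone of iron-sulfur clusters, read 9.91, 9.45, 9.72, 10.10 and 10.10 against 8.99, 8.67, 9.15 and 8.91 (-0.93 ± 0.15, adjusted p = 0.000428). The irradiated animals were below all controls in both. The first enzyme of the pathway in red cells was not called: Alas2 was at 14.00, 13.95, 13.77, 13.83 and 13.96 in the controls and 13.84, 13.85, 13.91 and 13.80 at 0.5 Gy (-0.05 ± 0.09, adjusted p = 0.812). Whether a probe set at so high a level could still show a fall was not tested. With the 18S level as a covariate 2 haem genes fell.

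Red cell enzymes and proteins divided. Of 14 enzymes, 6 fell (42.9%) and 1 rose (7.14%), where 5.0% and 5.24% of all tested genes did. With the 18S level as a covariate 2 fell and 1 rose. Prdx2, the peroxiredoxin that protects red cells from peroxide, read 11.15, 10.89, 10.96, 11.51 and 11.37 in the controls and 10.01, 9.84, 9.99 and 10.09 at 0.5 Gy, well below all controls (-1.19 ± 0.13, adjusted p = 9.66e-06), and its other probe set differed by -0.99. Acp1, a small phosphatase (-0.99 ± 0.13, adjusted p = 6.64e-05), and Car2, carbonic anhydrase 2 (-1.01 ± 0.20, adjusted p = 0.00232), fell likewise. Hk1, the hexokinase of red cells and many other cells, read 6.91, 7.29, 6.72, 6.93 and 6.63 against 8.48, 8.46, 8.47 and 8.44 (1.57 ± 0.13, adjusted p = 9.38e-07). Its irradiated animals were almost at one level, above all controls. Among 5 tested genes of haemoglobin and its chaperone, Hba-a2 alone was called, at -0.92 ± 0.22 (adjusted p = 0.0105). Hba-a1 was too low in its probe set to be tested (2.78 ± 0.14 in the controls, 2.80 ± 0.19 at 0.5 Gy), and Hbb-bt was not used.

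The red cell membrane list had 22 tested genes, of which 3 rose (13.6%) and 4 fell (18.2%), where 5.24% and 5.0% of all tested genes did. The risers were Gypc, glycophorin C (0.94 ± 0.16, adjusted p = 0.000688), Stom, stomatin (0.84 ± 0.15, adjusted p = 0.00119), and the water channel Aqp1 (1.02 ± 0.19, adjusted p = 0.00173), each called whichever array was left out. Stom was not called as the mean of its probe sets (0.57, adjusted p = 0.0795) or in its most variable one (0.82, adjusted p = 0.156), and with the 18S level as a covariate Gypc (0.78, adjusted p = 0.256) and Aqp1 (1.43, adjusted p = 0.0548) were not. Among the falls, Epb42, which ties the anion exchanger to the skeleton, fell by 1.02 ± 0.30 (adjusted p = 0.0357), but the call ended without any of 7 arrays (adjusted p up to 0.117 without the 0.5 Gy replicate 1), and those of Tmod1 (-0.75), Bsg (-0.49) and, named after its values were seen, Rhd (-0.56) ended without 4 to 10 arrays each. Between 0 and 1 of the 4 falls were called without any single one of the 4 irradiated arrays or control replicate 1, 4 or 5. The anion exchanger Slc4a1 itself was at -0.62 ± 0.23 (adjusted p = 0.094), not called.

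Genes that reticulocytes use to mature, including those of organelle clearance, were more often lower than higher among those called. Of 19 in the reticulocyte list, 6 fell (31.6%) and 1 rose (5.26%). Of 28 autophagy genes 4 fell (14.3%) and 1 rose (3.57%), where 5.0% and 5.24% of all tested genes did. With the 18S level as a covariate 1 fell in each list. With the mean of each gene's probe sets 1 autophagy gene fell and 2 rose. Atg4a, a protease that prepares the ATG8 family for autophagosomes, read 8.78, 7.69, 7.48, 8.24 and 8.19 in the controls and 6.44, 6.51, 6.79 and 6.62 at 0.5 Gy (-1.49 ± 0.21, adjusted p = 8.42e-05). The irradiated animals were close together below a wide spread of controls, while a second probe set of Atg4a differed by only -0.03. Map1lc3b (-0.51 ± 0.12) and Gabarapl2 (-0.44 ± 0.11), members of that ATG8 family, fell and Gabarapl1 rose (0.75 ± 0.17, adjusted p = 0.00753), but Map1lc3b was at 0.08 as the mean of its probe sets and at 0.45 in its most variable one. Fam210b, which helps iron into haem, read 9.10, 8.63, 8.25, 8.75 and 8.97 against 7.77, 7.50, 7.88 and 7.79 (-1.005 ± 0.16, adjusted p = 0.000452). The ubiquitin enzyme Ube2b (-0.84 ± 0.17) and the ubiquitin ligase Trim10 (-0.95 ± 0.20) fell as well, and Mxi1 was higher by 0.61 ± 0.19 (adjusted p = 0.047), a call that ended without any of 13 arrays (adjusted p up to 0.136 without the 0.5 Gy replicate 3).

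The broadest fall was in the machinery of protein synthesis. Of 45 cytosolic ribosomal protein genes tested, 34 fell and 0 rose, where 5.0% of all tested genes fell, and the median was -0.67 with 43 of 45 below 0. The falls spanned -1.17 to -0.48. Rpl27 read 11.48, 10.90, 11.41, 11.63 and 11.38 in the controls and 10.47, 10.87, 10.50 and 10.66 at 0.5 Gy (-0.73 ± 0.12, adjusted p = 0.000636). Rpl11, also known for binding MDM2, read 10.06, 9.14, 9.83, 10.31 and 9.84 against 8.49, 9.27, 8.56 and 8.82 (-1.05 ± 0.19, adjusted p = 0.00144). In both genes the irradiated replicate 2 and control replicate 2 met, with a narrow gap in Rpl27 and an overlap in Rpl11. Rpl37a fell by 0.75 ± 0.14, and Rpl27a by 1.17 ± 0.22 with another probe set at -0.11.

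That pattern held over the list. The mean level of the ribosomal protein genes was 9.66, 10.09, 9.75 and 9.76 in the irradiated animals and 10.54, 10.003, 10.40, 10.71 and 10.40 in the controls, so the replicate 2 of each group lay side by side. In 8 of the 45 genes all irradiated animals lay below all controls, where 4.54% of all tested genes did so. The count of falls was 22 without the 0.5 Gy replicate 1 and 23 without replicate 3, at most 37 with any array left out, and 19 with the 18S level as a covariate. Among 39 translation factors 10 fell and 0 rose (median -0.28), led by Eef1b2 (-0.75 ± 0.15), Eif5 (-0.85 ± 0.17) and Eef1a1 (-0.54 ± 0.12). These falls numbered 7 to 14 with 1 array left out and 3 with the 18S level as a covariate. With that covariate Eif5 (-0.77, adjusted p = 0.315) and Eef1a1 (-0.79, adjusted p = 0.0969) were not called.

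Genes of the mitochondrion were lower too, and their counts rested more on single arrays. Of 73 mitochondrial ribosomal protein genes 21 fell (28.8%, where 5.0% of all tested genes fell) and 0 rose (median -0.34). Mrpl32 read 7.35, 6.53, 6.86, 7.54 and 7.37 in the controls and 6.05, 6.24, 6.35 and 6.09 at 0.5 Gy, with no overlap (-0.95 ± 0.16, adjusted p = 0.000501), and Mrpl41 fell by 0.79 ± 0.14. Of 33 complex I genes 17 fell and 0 rose (median -0.45), among them Ndufb11, whose controls read 9.59, 8.95, 9.24, 9.73 and 9.46 and whose irradiated animals read 8.57, 8.73, 8.65 and 8.61, all lower (-0.75 ± 0.12, adjusted p = 0.000469). Complexes II to IV with cytochrome c gave 8 of 28 lower and 0 higher (median -0.35), among them Cox4i1 (-0.67 ± 0.13), and ATP synthase gave 9 of 16 lower and 0 higher (median -0.48), among them Atp5e (-0.89 ± 0.16). The tricarboxylic acid cycle genes, 17 tested, had 0 calls in either direction by limma, 3 with an unadjusted p under 0.05, and a median of -0.18.

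These counts moved with single arrays and with the model. Without the 0.5 Gy replicate 1, 9 mitochondrial ribosomal protein genes, 7 complex I genes, 2 of complexes II to IV and 2 of ATP synthase fell. Without the 0.5 Gy replicate 3 these counts were 8, 8, 2 and 4, and without control replicate 4 they were 10, 10, 4 and 3. Complex I had 11 falls and complexes II to IV 4 without the 0.5 Gy replicate 4, complexes II to IV had 4 without control replicate 1 and 14 without control replicate 2, and ATP synthase had 5 without control replicate 1. With the 18S level as a covariate the counts were 13, 11, 6 and 5, and ATP synthase had 4 with the 9 arrays of the comparison alone or with a replicate block. The proteasome, which degrades tagged proteins, had 10 of 33 genes lower and 0 higher (median -0.36), with Psmb1 at -0.75 ± 0.15, and 2 were called without the 0.5 Gy replicate 1, the 0.5 Gy replicate 3 or control replicate 4, 3 without control replicate 1 and 5 without the 0.5 Gy replicate 4 or control replicate 5. It had 4 with the 18S level as a covariate or a replicate block and 6 with the mean of each gene's probe sets.

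**Figure D4:**
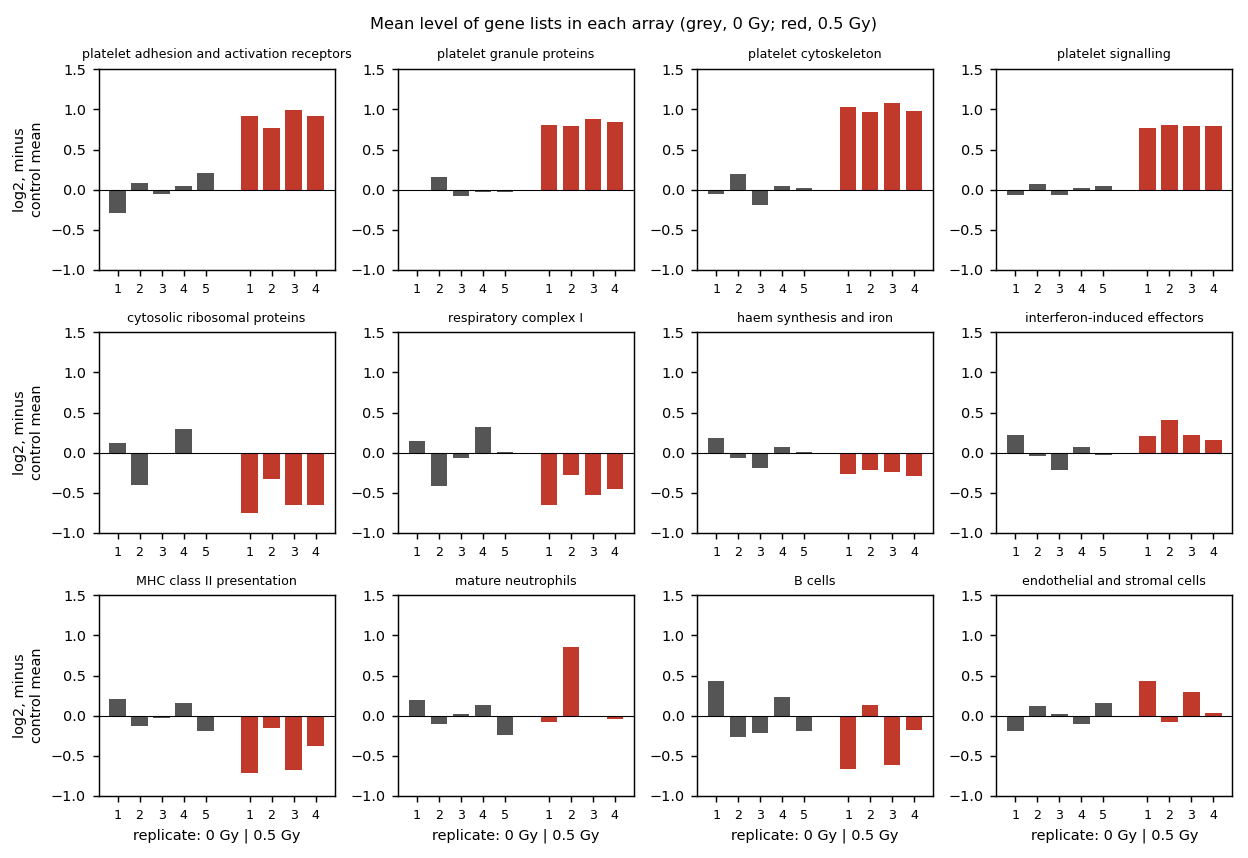
Mean log2 level of 12 gene lists in each of the 9 arrays, minus the mean of the control arrays. Each bar is 1 array. In the 4 platelet lists all irradiated arrays lie above all controls, in the ribosomal protein list the 0.5 Gy replicate 2 lies within the control range, and in the mature neutrophil list that array lies above all others.

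Splicing factors and hnRNPs, 46 tested, had 6 lower and 1 higher. Hnrnpab, an RNA-binding protein, read 11.72, 11.56, 11.81, 11.87 and 11.84 in the controls and 10.54, 10.38, 10.15 and 10.34 at 0.5 Gy, with more than 1 log2 unit between the groups (-1.41 ± 0.19, adjusted p = 7.05e-05). This came from 1 probe set: the other 6 probe sets of Hnrnpab differed by -0.36 to 0.13. Snrpf (-0.64 ± 0.14) and Snrpe (-0.97 ± 0.22), proteins of the spliceosome's Sm core, also fell, and Sfpq, a paraspeckle protein, read 5.70, 5.05, 4.57, 5.02 and 4.70 against 5.78, 6.23, 6.02 and 5.84, higher in all irradiated animals by 0.96 ± 0.21 (adjusted p = 0.00484). As the mean of its probe sets Sfpq was at 0.23 (adjusted p = 0.472). The falls numbered 3 without the 0.5 Gy replicate 1 and 10 without control replicate 2.

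Interferon-induced genes rose in part. Of 33 effectors tested, 7 rose (21.2%) and 1 fell (3.03%), where 5.24% and 5.0% of all tested genes did, and the median was 0.23. Ifit3, an RNA-binding antiviral protein, read 5.50, 5.46, 5.37, 5.38 and 5.59 in the controls and 6.97, 6.85, 6.96 and 6.65 at 0.5 Gy (1.39 ± 0.22, adjusted p = 3e-04). Ifit2 of the same family read 5.84, 6.14, 6.20, 6.23 and 6.24 against 7.13, 7.17, 7.41 and 7.20 (1.10 ± 0.19, adjusted p = 0.000617). Both groups were tight and far apart, with all irradiated animals higher. Lgals3bp, a secreted glycoprotein, rose by 0.88 ± 0.18, and Ifi27 fell by 0.64 ± 0.15 (adjusted p = 0.00771). Without the 0.5 Gy replicate 1 or 3, 4 effectors rose, and with the 18S level as a covariate 1 did.

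Other arms of the interferon system moved one gene at a time. Slfn4, a myeloid gene and the only one called among 6 Schlafen genes, read 7.26, 5.96, 7.02, 7.28 and 6.90 in the controls and 8.26, 9.28, 8.55 and 8.46 at 0.5 Gy (1.75 ± 0.31, adjusted p = 0.000886); its highest value was in the irradiated replicate 2, the array with high neutrophil genes, and all irradiated animals were above all controls. Igtp, an interferon-inducible GTPase, read 8.50, 8.45, 8.39, 8.73 and 8.59 against 9.61, 9.43, 9.62 and 9.40, without overlap (0.99 ± 0.17, adjusted p = 0.000729), and was the only call among 10 such GTPases. Of 27 sensors and signalling genes 2 rose (7.41%) and 3 fell (11.1%), where 5.24% and 5.0% of all tested genes did. The kinase Jak1 rose by 0.89 ± 0.20, though not as the mean of its probe sets (0.54, adjusted p = 0.114), whereas Irf7, the factor that amplifies the interferon response, fell by 0.61 ± 0.16 (adjusted p = 0.0186), a call that ended without either of 2 arrays (adjusted p up to 0.0704 without the 0.5 Gy replicate 4). The falls of the receptor chains Ifngr2 (-0.61 ± 0.17) and Ifnar2 (-0.41 ± 0.13) and the rise of the adaptor Mavs (0.45 ± 0.13) ended in the same way, with adjusted p up to 0.0729, 0.145 and 0.148.

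Targets of p53 were called in both directions. Of 32 targets of arrest, repair and stress tested, 4 rose and 2 fell, 12.5% and 6.25% where 5.24% and 5.0% of all tested genes did, and the median was 0.05. Ccng1, cyclin G1, read 6.13, 5.64, 5.75, 6.23 and 5.70 in the controls and 6.60, 6.88, 6.84 and 6.76 at 0.5 Gy, higher in every irradiated animal (0.88 ± 0.14, adjusted p = 0.00042), and its other probe sets differed by 0.82 and 1.01. Cdkn1a, the cell cycle inhibitor p21, read 5.03, 5.20, 4.93, 4.61 and 5.25 against 5.60, 5.33, 5.53 and 5.49. Its irradiated animals were above all controls, but its difference of 0.48 ± 0.16 was not called (adjusted p = 0.0562). Mdm2, the ligase that p53 induces against itself, was at 5.56, 4.90, 5.32, 5.38 and 5.14 in the controls and 5.04, 5.42, 5.29 and 5.28 at 0.5 Gy, the groups fully mixed (0.00 ± 0.13, adjusted p = 0.999).

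The other calls in the p53 list were Dglucy (0.55 ± 0.14, adjusted p = 0.0118), Zmat3, an RNA-binding target of p53 (0.73 ± 0.21, adjusted p = 0.0291), and, named after its values were seen, Ccnd2, cyclin D2 (0.88 ± 0.25, adjusted p = 0.0314). The falls were Gadd45a, a damage-response gene that read 9.06, 8.62, 8.77, 9.42 and 9.10 against 8.23, 8.27, 8.42 and 8.36 (-0.67 ± 0.17, adjusted p = 0.0124), and Ddb2, which recognises ultraviolet lesions (-0.59 ± 0.18, adjusted p = 0.0476, up to 0.163 without the 0.5 Gy replicate 4). The calls of Zmat3 and Ccnd2 each ended without any of 6 arrays, and the rises numbered 2 without the 0.5 Gy replicate 1, 2 or 3 or control replicate 3 or 4. Phlda3 (0.36, adjusted p = 0.117) and Sesn1 (-0.46, adjusted p = 0.0838) were not called. With the 18S level as a covariate 0 were called by limma, at differences of 0.73 for Ccng1 (adjusted p = 0.22), 0.63 for Dglucy (0.281) and 1.09 for Zmat3 (0.202), and with quantile normalization repeated on the deposited values 7 were called higher.

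Of 31 BCL2 family, caspase and death receptor genes, 4 rose (12.9%) and 1 fell (3.23%), where 5.24% and 5.0% of all tested genes did. Cflar, an inhibitor of death receptor signalling, read 5.84, 5.72, 5.45, 5.80 and 5.04 in the controls and 6.35, 6.36, 6.27 and 6.16 at 0.5 Gy, higher in all irradiated animals (0.72 ± 0.17, adjusted p = 0.01). The caspase and death signalling inhibitors Birc2 (0.88 ± 0.21) and, named after its values were seen, Xiap (0.66) rose, as did the pro-apoptotic Bid (0.72 ± 0.18, adjusted p up to 0.0601 without the 0.5 Gy replicate 3), while the pro-apoptotic Bad fell by 0.40 ± 0.11 (up to 0.0965 without the 0.5 Gy replicate 4). Without the 0.5 Gy replicate 3 the rises numbered 2, and with the 18S level as a covariate 1. Of 35 DNA damage and repair genes 1 rose and 1 fell (2.86% each), smaller shares than among all tested genes. The kinase Chek2 rose (0.50 ± 0.15, adjusted p = 0.0411, up to 0.171 without the 0.5 Gy replicate 4) and Xpa, of nucleotide excision repair, fell (-0.58 ± 0.14, adjusted p = 0.0108).

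Of 30 B cell genes tested, 1 fell (3.33%, where 5.0% of all tested genes fell) and 0 rose, and the list's median was -0.33. With the 9 arrays of the comparison alone, or without the 3.0 Gy replicate 2, 5 fell, and with the 18S level as a covariate 3 did. Cd79a, a signalling chain of the B cell receptor, read 8.28, 7.42, 7.75, 8.22 and 7.66 in the controls and 6.86, 7.53, 6.69 and 7.24 at 0.5 Gy (-0.79 ± 0.23, adjusted p = 0.0376), with the irradiated replicate 2 among the controls; the call ended without any of 6 arrays (adjusted p up to 0.152 without the 0.5 Gy replicate 3). Ms4a1, the B cell antigen CD20, read 10.23, 9.25, 9.52, 10.02 and 9.79 against 9.21, 10.06, 9.07 and 9.70 (-0.25 ± 0.39, adjusted p = 0.783). It overlapped widely, with the irradiated replicates 1 and 3 the lowest. Over the whole list the irradiated animals stood at 6.95, 7.74, 6.99 and 7.44 and the controls at 8.05, 7.36, 7.40, 7.85 and 7.43, and the irradiated replicates 2 and 4 lay inside the control range. Without the 0.5 Gy replicate 2, 4 B cell genes fell, 5 did without control replicate 2, and 0 did without the 0.5 Gy replicate 1, 3 or 4 or control replicate 1, 3 or 4.

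T cells had 3 of 27 genes lower (11.1%, where 5.0% of all tested genes fell), 0 higher and a median of -0.20. Cd3d, a chain of the T cell receptor complex, read 9.55, 8.64, 9.48, 10.0001 and 8.90 in the controls and 8.25, 8.74, 8.38 and 8.11 at 0.5 Gy, lower apart from an overlap at replicate 2 of each group (-0.94 ± 0.25, adjusted p = 0.0183). Cd3g fell by 0.68 ± 0.21 (adjusted p = 0.0416, up to 0.133 without the 0.5 Gy replicate 4) and S1pr1, which lets lymphocytes leave lymphoid organs, by 0.60 ± 0.18 (0.0322, up to 0.137 without the 0.5 Gy replicate 1), but Cd3e was at -0.08 (adjusted p = 0.836). The count was 0 without the 0.5 Gy replicate 1, 3 or 4 or control replicate 4, 1 without control replicate 1 or 3, 0 with the 18S level as a covariate, and 5 with the mean of each gene's probe sets or with a replicate block. Among 22 NK and cytotoxic genes the chemokine Ccl5 fell (-0.70 ± 0.20, adjusted p = 0.0267, up to 0.0814 without control replicate 4), and the NK receptor Ncr1 was at 0.12 (adjusted p = 0.793). Of 9 plasma cell and immunoglobulin genes Mzb1 fell (-0.81 ± 0.25, adjusted p = 0.0472), a call that ended without any of 12 arrays (adjusted p up to 0.161 without the 0.5 Gy replicate 1).

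Of 17 genes of antigen presentation by MHC class II 3 fell (17.6%, where 5.0% of all tested genes fell) and 0 rose (median -0.50). H2-DMa, which loads peptides onto class II, read 8.46, 7.84, 8.29, 8.69 and 8.09 in the controls and 6.79, 7.66, 6.96 and 7.38 at 0.5 Gy, all lower (-1.08 ± 0.25, adjusted p = 0.00933). H2-Oa, which restrains it, fell by 0.90 ± 0.23 (adjusted p = 0.0155, up to 0.068 without the 0.5 Gy replicate 1) and Rfxank, a transcription factor of class II genes, by 0.46 ± 0.12 (0.0217, up to 0.0699 without the 0.5 Gy replicate 2). The list's mean was 7.23, 7.79, 7.27 and 7.57 against 8.15, 7.81, 7.91, 8.10 and 7.75, again with the irradiated replicate 2 among the controls. The falls numbered 1 without the 0.5 Gy replicate 3 or with the 18S level as a covariate, 6 with the 9 arrays of the comparison alone, and 8 without the 3.0 Gy replicate 2.

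Monocyte genes gave 4 falls (16.7%, where 5.0% of all tested genes fell) and 0 rises among 24 (median -0.27). Treml4, of non-classical monocytes and some dendritic cells, read 6.14, 6.86, 6.33, 6.33 and 5.43 in the controls and 5.12, 5.39, 5.07 and 4.81 at 0.5 Gy (-1.12 ± 0.21, adjusted p = 0.00141), and Clec4a3, a lectin receptor, read 5.58, 5.74, 5.61, 5.88 and 5.08 against 4.68, 5.05, 4.64 and 4.53 (-0.85 ± 0.18, adjusted p = 0.0042). All irradiated animals were below all controls in both, by a narrow margin set by control replicate 5. Gngt2 fell by 0.93 ± 0.20 and, named after its values were seen, Adgre4 by 1.04. The defining markers Csf1r (-0.14, adjusted p = 0.903) and Ccr2 (-0.48, adjusted p = 0.133) were not called. With the 18S level as a covariate 1 monocyte gene fell, and Treml4 (-0.40, adjusted p = 0.716) and Clec4a3 (-0.67, adjusted p = 0.434) lost their calls.

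Neutrophils, known to resist radiation better than lymphocytes, had 1 higher and 1 lower of 27 mature genes (3.70% each, median 0.09). Over all tested genes 5.24% were higher and 5.0% lower. S100a8 read 12.24, 11.60, 12.12, 12.31 and 11.89 in the controls and 11.41, 12.88, 11.58 and 11.40 at 0.5 Gy, the irradiated replicate 2 above all controls and the others below all of them (-0.22 ± 0.28, adjusted p = 0.73). Mxd1 rose by 0.51 ± 0.15 (adjusted p = 0.0373, up to 0.108 without the 0.5 Gy replicate 2) and G0s2 fell by 0.55 ± 0.11. Of 14 granule genes of immature granulocytes Chil3 fell (-1.16 ± 0.35, adjusted p = 0.0406, up to 0.161 without the 0.5 Gy replicate 1), and of 14 dendritic cell genes Cd83 fell (-0.61 ± 0.17, adjusted p = 0.0257, up to 0.123 without the 0.5 Gy replicate 1). Mitosis genes, 14 tested, had 0 calls by limma and 2 with an unadjusted p under 0.05 (median 0.12), with Mki67 at 0.54 (adjusted p = 0.157). By limma 0 of 7 genes of eosinophils, basophils and mast cells were called, and 1 with an unadjusted p under 0.05. Of 25 DNA replication genes Rfc2 fell (-0.40 ± 0.12, adjusted p = 0.0437, up to 0.15 without the 0.5 Gy replicate 3).

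Glycolysis was a small list whose calls had 1 direction: 7 of 20 genes rose (35.0%, where 5.24% of all tested genes rose) and 0 fell (median 0.14). Called or not, 11 of its genes were above 0 and 9 below. With the most variable probe set 5 rose and 1 fell, and with the 18S level as a covariate 3 rose. Besides Hk1, the glucose transporter Slc2a3 read 9.94, 10.40, 10.03, 10.19 and 10.01 in the controls and 11.50, 11.28, 11.47 and 11.26 at 0.5 Gy (1.26 ± 0.15, adjusted p = 2.32e-05), and Pkm, pyruvate kinase, read 7.40, 7.58, 7.16, 7.40 and 7.33 against 8.55, 8.36, 8.30 and 8.23 (0.99 ± 0.13, adjusted p = 5.2e-05). In each the irradiated animals formed a group above all controls, and the 3 were also called with the 18S level as a covariate. Of 26 heat shock genes 4 rose (15.4%) and 2 fell (7.69%), where 5.24% and 5.0% of all tested genes did. Hspa4l and Hsph1, relatives of the HSP110 exchange factors, each rose by 1.50 (SE 0.18 and 0.23); Hsph1 read 6.36, 6.16, 5.44, 5.53 and 5.84 in the controls and 7.70, 7.02, 7.86 and 6.86 at 0.5 Gy, spread but without overlap. Dnajb4 (1.06 ± 0.20) and, named after its values were seen, Hsp90aa1 (0.78) also rose.

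Further lists gave single genes, where 5.24% of all tested genes rose and 5.0% fell. Of 34 genes of peroxide, glutathione and thioredoxin defence 5 fell and 1 rose, among them the mitochondrial thioredoxin reductase Txnrd2 (-1.11 ± 0.17, adjusted p = 0.000258) and the glutathione transferase Mgst3 (-0.82 ± 0.16, adjusted p = 0.00207), while Srxn1, which repairs peroxiredoxins, was higher (0.93 ± 0.26, adjusted p = 0.0245, up to 0.0869 without the 0.5 Gy replicate 3). The falls numbered 3 without the 0.5 Gy replicate 1, 3 or 4 or control replicate 1 or 4, and 8 without control replicate 2. Of 25 sterol and fatty acid genes Elovl6 (1.01 ± 0.18) and Scd2 (0.88 ± 0.22) rose, though Scd2 was at -0.12 with the 18S level as a covariate. The clock kinase Csnk1d fell (-0.64 ± 0.10, adjusted p = 0.000174) in its main probe set and was at 0.35 in its most variable one, while Csnk1e rose (0.42 ± 0.12, adjusted p = 0.0327, up to 0.103 without the 0.5 Gy replicate 1). Nr1d2, another of the 18 clock genes, fell (-0.58 ± 0.18, adjusted p = 0.0479, up to 0.185 without the 0.5 Gy replicate 1). Of 25 homing receptors 2 rose and 2 fell (8.0% each). The leukocyte integrins Itgb2 (0.80 ± 0.17) and Itgal (0.71 ± 0.21, adjusted p up to 0.102 without the 0.5 Gy replicate 1) rose and the sphingosine phosphate receptors S1pr4 (-0.66 ± 0.16) and S1pr1 fell. Of 20 Toll-like receptor genes Irak3 rose (0.51 ± 0.13), and the adjusted p reached 0.0703 without the 0.5 Gy replicate 3. Of 26 immediate early genes Ier2 fell (-0.63 ± 0.16, up to 0.0611 without the 0.5 Gy replicate 3), of 17 class I genes Psmb9 fell (-0.55 ± 0.14, up to 0.0694 without the 0.5 Gy replicate 1), and 0 of 21 NF-kB genes were called by limma, 3 with an unadjusted p under 0.05.

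The largest falls were ranked among called genes whose groups did not overlap. Those remaining were Use1, of vesicle traffic (-1.17 ± 0.19), the cold-inducible RNA-binding protein Cirbp, which read 6.08, 5.97, 6.36, 6.07 and 5.52 in the controls and 4.62, 5.42, 4.59 and 4.98 at 0.5 Gy (-1.10 ± 0.18, adjusted p = 0.000413), the ribosomal protein Rpsa (-1.09 ± 0.24), the calcium release channel Ryr1 (-1.09 ± 0.20), A930006K02Rik (-1.08 ± 0.19) and the lysosomal protease Ctsf (-1.07 ± 0.19). Cirbp had all irradiated animals below all controls, with replicate 2 nearest to them.

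Genes of connective tissue appeared in 2 of the 4 irradiated animals. Mgp, matrix Gla protein, read 2.85, 3.57, 3.23, 3.02 and 3.14 in the controls and 5.85, 3.96, 6.31 and 3.89 at 0.5 Gy (1.84 ± 0.40, adjusted p = 0.00508), and Dcn, decorin, read 3.45, 3.42, 3.27, 3.55 and 3.74 against 5.36, 3.81, 5.29 and 3.83 (1.09 ± 0.27, adjusted p = 0.014). Replicates 1 and 3 were high and replicates 2 and 4 barely above the controls. In 4 genes both replicates 1 and 3 exceeded the other 15 arrays of the series by at least 0.5: Mgp, Dcn, and, named after their values were seen, Upk3b (5.92 and 6.11, others 4.30 to 5.25) and Col3a1 (3.88 and 4.56, others 1.93 to 3.24). Of the 12 stromal and endothelial genes tested Dcn alone was called, a call that ended without the 0.5 Gy replicate 1 or 3 (adjusted p up to 0.0747), and the list's mean was 4.52, 4.00, 4.38 and 4.12 in the irradiated animals and 3.90 to 4.25 in the controls. The endothelial markers Cdh5 (-0.17) and Kdr (0.12) and the collagen Col1a1 (0.12) were not called. The part of such RNA in the other results was not tested. The platelet cytoskeleton list stood at 9.09 and 9.10 in replicates 2 and 4 and at 9.15 and 9.20 in replicates 1 and 3.

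Where a called gene had other probe sets, they often fell short of it. Of the 1300 called genes 802 had other probe sets; in 309 at least 1 of these was called the same way and in 5 at least 1 was called the opposite way. Those 5, named after their values were seen, were Glul (-0.57 against 0.72 in the other probe set), Gnas (0.61 against -0.53), Mettl21a (0.51 against -0.53), Snrpd3 (-0.57 against 0.59) and Zfp101 (1.02 against -0.50). The cause was not tested. Averaging a gene's probe sets ended further calls among the genes named: Stom (0.57, adjusted p = 0.0795), Jak1 (0.54, adjusted p = 0.114), Sfpq (0.23, adjusted p = 0.472), Dnajb4 (0.47, adjusted p = 0.081), Psmb1 (-0.30, adjusted p = 0.0511), Xpa (-0.23, adjusted p = 0.067), Mxd1 (0.16, adjusted p = 0.464) and Rfxank (-0.16, adjusted p = 0.397) among them. In their most variable probe set Slc2a3 (0.92, adjusted p = 0.157), Cflar (0.39, adjusted p = 0.29) and Mrpl41 (-0.58, adjusted p = 0.0923) were not called.

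The 0.5 Gy blood was then set beside the higher doses. Against 1.0 Gy almost nothing was called: 2 genes (0.0158%), both lower at 1.0 Gy, while 735 had an unadjusted p under 0.05. The groups overlapped in 18S, at 12.89 to 13.52 at 1.0 Gy and 11.76 to 13.43 at 0.5 Gy. Glrx5, which passes on iron-sulfur clusters, read 12.01, 11.66, 11.44, 11.70 and 11.88 without irradiation and 11.10, 10.82, 11.15 and 10.94 at 0.5 Gy. Its means were 10.09 ± 0.13 at 1.0 Gy and 9.78 ± 0.17 at 3.0 Gy, lower with each higher dose (1.0 minus 0.5 Gy -0.92 ± 0.13, adjusted p = 0.0129). Hagh, of methylglyoxal clearance, stood at 10.47 ± 0.26, 9.73 ± 0.17, 8.82 ± 0.20 and 8.84 ± 0.08 (-0.91 ± 0.14, adjusted p = 0.0194). The count of 2 was 0 without the 0.5 Gy replicate 1, 3 or 4 or the 1.0 Gy replicate 1, 2 or 4. It was 6 without the 3.0 Gy replicate 3, 9 without control replicate 1, 12 without the 3.0 Gy replicate 2, 17 without control replicate 3 and 42 without the 1.0 Gy replicate 3.

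Against 3.0 Gy, 1633 genes were higher (12.9%) and 2659 lower (20.9%) at 3.0 Gy; with quantile normalization repeated on the deposited values these were 2861 and 2376, so the split between directions depended on the scaling. The 18S level at 3.0 Gy, 10.50 to 10.84, lay within the range of the controls, and with it as a covariate 95 genes were called. The lymphocyte lists were lower at 3.0 Gy than at 0.5 Gy: 29 of 30 B cell genes (median -2.12), 19 of 27 T cell genes (median -1.23) and 13 of 17 class II genes (median -1.32). Of 46 splicing factors 41 were lower (median -0.998), and 17 of 27 mature neutrophil genes were higher (median 0.86). The platelet lists were higher at 3.0 than at 0.5 Gy in part: 10 of 24 receptors (median 0.49), 6 of 29 granule proteins (0.13), 13 of 28 cytoskeleton genes (0.39) and 13 of 28 signalling genes (0.37), with 2, 1, 0 and 2 lower.

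**Figure D5:**
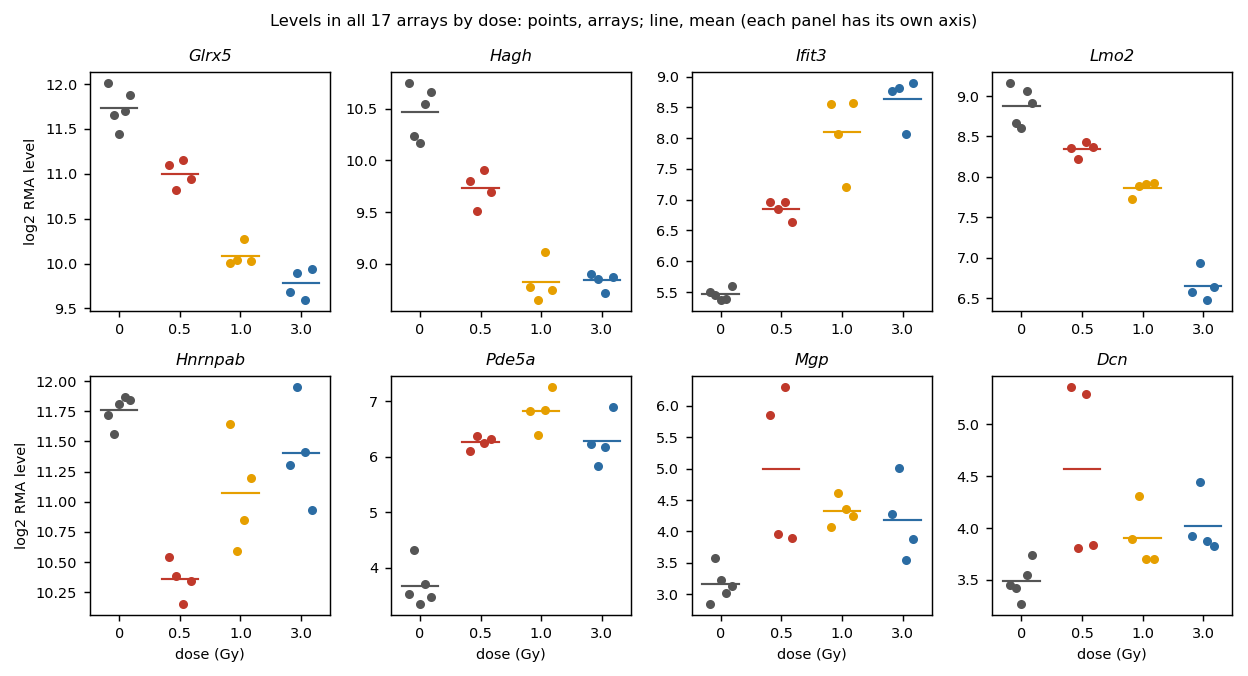
Log2 expression level of 8 genes in all 17 arrays by dose (0, 0.5, 1.0 and 3.0 Gy). Each point is 1 mouse; Pde5a is near its level at 3.0 Gy already at 0.5 Gy, Ifit3 is higher and Lmo2 lower at 3.0 Gy than at 0.5 Gy, Hnrnpab is lowest at 0.5 Gy, and Mgp and Dcn are high in 2 animals at 0.5 Gy.

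Single genes show these courses. Pde5a stood at 6.25 ± 0.12 at 0.5 Gy, 6.82 ± 0.36 at 1.0 Gy and 6.28 ± 0.45 at 3.0 Gy (3.0 minus 0.5 Gy 0.03 ± 0.22, adjusted p = 0.932), and Thbs1 at 9.91 ± 0.18, 10.42 ± 0.19 and 9.75 ± 0.39 (-0.16 ± 0.20, adjusted p = 0.546). The means of Ifit3 were 5.46 ± 0.09 unirradiated, then 6.85 ± 0.15, 8.10 ± 0.64 and 8.64 ± 0.39 in order of dose (3.0 minus 0.5 Gy 1.78 ± 0.23, adjusted p = 2.37e-05). Lmo2 stood at 8.88 ± 0.24, 8.34 ± 0.09, 7.86 ± 0.09 and 6.65 ± 0.20 (-1.69 ± 0.13, adjusted p = 3.28e-07). Sfpq, higher at 0.5 Gy than in the controls in the probe set used, stood at 6.02 ± 0.29 at 1.0 Gy and 3.11 ± 0.37 at 3.0 Gy (-2.86 ± 0.22, adjusted p = 3.28e-07). Hnrnpab also reversed its course, from 10.36 ± 0.16 at 0.5 Gy to 11.40 ± 0.42 at 3.0 Gy (1.05 ± 0.20, adjusted p = 0.000656). Among all tested genes 0 had the 4 arrays of 0.5 Gy above all 13 other arrays and 8 had them below: Hnrnpab, Gm35961, Abhd12 and Hcfc1r1, each called against the controls, and Dedd2, Slc30a2, Ufc1 and Thtpa, which were not, all but Hnrnpab named after their values were seen.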

How the data were processed

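Total RNA from whole blood was labelled from 200 ng with a 3′ in vitro transcription kit (Affymetrix), per the labels' protocols. The authors deposited log2 expression values for 17 arrays, made with RMA in R 3.3.2 per the submitters' processing notes; settings and scan dates are not stated there. Probe sets were named from GEO's platform annotation, and 932 with several genes and 9160 with none were left out. Group means were fitted with limma 3.58.1 in R 4.3.3 (lmFit, eBayes) over 4 groups, without a replicate term; the fit was tested on simulated data. Array number limits the precision.

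Members and gene lists were chosen with earlier results of these data known. Named genes were the 15 largest rises and falls without overlap between groups, up to 3 called genes per list and direction with the smallest p (or the leading one), the defining markers, and the 5 leading genes per direction against higher doses. The labels name no pairing of mice across groups. Same-numbered control and 0.5 Gy arrays did not deviate together (r = -0.45, -0.40, 0.08 and -0.01), though so few correlations cannot exclude a pairing. Alternatives were the 9 arrays alone, the 18S covariate, other filters and probe set rules, repeated quantile normalization, a replicate block, trended robust variance and each array left out. The markers Hbb-bt, Ly6c2 and Klrb1c were not used here.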

Additional observations from a re-analysis of the deposited data

Results flagged for a closer look

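Outlying arrays. In 19 of 374 groups examined, the highest or lowest array stood apart from the rest by Dixon's criterion, which chance meets in about 1 of 20 groups. The 0.5 Gy replicate 2 accounted for many of them. It was highest in the neutrophil genes S100a8 (12.88), Csf3r (9.34) and Cxcr2 (8.26), in Chil3 (7.53) and in Rpsa (10.20), Psmb1 (7.38) and Snrpf (4.99), and lowest in Ro60 (6.43), Blvrb (8.67) and Stom (8.75). Among the other irradiated arrays, replicate 3 stood high in Thbs1 (10.19) and Ttc16 (4.73), and replicate 1 in Col1a1 (3.63). Among the controls, replicate 2 stood high in Itga2b (9.90) and low in Slfn4 (5.96), replicate 1 stood low in Tal1 (6.54), Ifit2 (5.84) and Col1a1 (2.97), and replicate 5 stood high in Gata2 (6.21).

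Differences between doses. By limma 4292 genes differed between 3.0 and 0.5 Gy. Relative to 0.5 Gy, the adhesion gene Ninj1 was higher at 3.0 Gy by 1.42 (SE 0.18), Bcas3 by 1.08 (SE 0.13), 2310034O05Rik by 1.39 (SE 0.17) and Ttc16 by 1.50 (SE 0.19), and Ifit3 by 1.78. The guanine nucleotide exchange factor Dock10 differed by -3.01 (SE 0.22), the immunoglobulin segment Ighv14-2 by -4.40 (SE 0.34), Trim59 by -2.11 (SE 0.17), Sfpq by -2.86 and Lmo2 by -1.69. Of these, Dock10, Ighv14-2, Ninj1 and Ttc16 were not called at 0.5 Gy against the controls. Between 1.0 and 0.5 Gy Glrx5 differed by -0.92 and Hagh by -0.91.

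Control probe sets. The 18S ribosomal RNA level, which the gene comparisons do not use, was higher at 0.5 Gy by 2.17.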

How the results depend on the processing

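The 1300 calls at 0.5 Gy became 557 with the 18S level as a covariate and lay between 765 (without the 0.5 Gy replicate 3) and 1622 (without control replicate 2) with 1 array left out; the higher genes then numbered 480 to 763 and the lower 274 to 928. The other settings gave 1208 to 1540. The labels name no pairing by replicate number, and the fit with a replicate block, given for completeness, called 1208 genes, 678 higher and 530 lower. Against 1.0 Gy the 2 calls were 0 with the 18S covariate or trended variance, 1 with the mean of probe sets, 7 with the most variable probe set, 21 with repeated quantile normalization, and 0 to 42 with 1 array left out. Against 3.0 Gy the 4292 calls were 95 with the 18S covariate and 3083 to 4487 with 1 array left out. Directions turned in Map1lc3b (0.078 as the mean of probe sets, 0.45 in the most variable one), Psme3 (0.31) and Csnk1d (0.35) in the most variable one, and Scd2 (-0.12 with the 18S covariate); the cause was not tested. The 18S difference was 2.75 as the median of its probe sets and 1.93 to 2.48 with 1 array left out (exact p 0.0179 to 0.0286). Of the 150 called genes named, 57 were called in every setting, 110 under every array left out, and 79 lost their call with the 18S covariate. Limits are the 4 and 5 mice, 1 time point, relative levels, and probe sets that read only part of a transcript.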

Other observations

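Host genes of small nucleolar RNAs, transcripts whose introns carry the guides for ribosomal RNA modification, belonged to none of the lists above and are described after their values were seen. Of 14 tested, 7 were lower at 0.5 Gy and 0 higher, with a median of -0.45. Among all tested genes 5.0% were lower and 5.24% higher. Zfas1 read 7.13, 6.61, 7.0, 7.66 and 7.29 in the controls and 6.03, 6.66, 6.14 and 6.45 at 0.5 Gy (-0.82 ± 0.19, adjusted p = 0.00789), and Snhg1 read 7.43, 6.37, 7.13, 7.34 and 7.16 against 6.07, 6.61, 6.37 and 6.20 (-0.77 ± 0.17, adjusted p = 0.00504). As in the ribosomal protein genes, the replicate 2 of each group met, and both genes were called whichever array was left out. The calls of Snhg6 (-1.15 ± 0.31), Snhg5 (-0.55 ± 0.15) and Snhg16 (-0.54 ± 0.14) each ended without any of 4 arrays. Those of Snhg12 (-0.77 ± 0.20) and Snhg8 (-0.84 ± 0.23) ended without any of 2 and 6 arrays. The adjusted p was largest without the 0.5 Gy replicate 1 for Snhg6 (0.0968), Snhg5 (0.0931), Snhg12 (0.0726) and Snhg8 (0.0705). For Snhg16 it was largest without the 0.5 Gy replicate 4 (0.0656). Gas5, the best known of these genes, was at -0.36 ± 0.23 (adjusted p = 0.384).

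Other genes outside the lists, also chosen after their values were seen, differed in the same direction as the platelet or the mitochondrial genes. Whether they varied together with those genes was not tested. The kinase subunit Prkar2b read 8.10, 8.49, 8.29, 8.36 and 8.58 in the controls and 10.02, 10.12, 10.21 and 10.20 at 0.5 Gy (1.77 ± 0.17, adjusted p = 2.52e-06), and the laminin receptor chain Itga6 rose by 1.73 ± 0.20 (adjusted p = 1.85e-05). Neither overlapped between the groups. Tomm20, a mitochondrial import receptor, fell by 1.13 ± 0.22 (adjusted p = 0.00252).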
